A study of Mus musculus with 7 samples.

Results

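Expression of 10 genes of uterine resident macrophages was examined library by library in mouse uterus after intra-uterine infusion of the chemokine CXCL12 or saline. The 10 genes were chosen by symbol (Csf1, Csf1r, Cd68, Mrc1, Cd163, Lyz2, C1qa, C1qb, C1qc and Adgre1), and each was found on a single row of the 23282 named rows in every table. Uteri came from 6-week-old C57BL/6 females, in which 100 ng of recombinant human CXCL12 in 30 µl of saline was infused into one horn and saline into the other. The libraries were made by QuantSeq, a method that sequences only the 3′ ends of polyadenylated RNA, and consisted of 2 saline-treated libraries, 2 libraries taken at Day 3 of CXCL12 and 3 taken at Day 8. No day is labelled for the saline-treated libraries, and the tissue was whole uterus. No genetic modification, sorting or enrichment of macrophages is described.

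Library totals were 6908790 and 9491691 counts for saline replicates 1 and 2, and 9968909 for Day 3 replicate 2. Totals at Day 8 were 9601312 counts in replicate 1, 12308982 in replicate 2 and 9941132 in replicate 3. Day 3 replicate 1 was deposited on a log2 scale, from which a total of 10453186 counts was estimated. Levels are given as counts per 1000000 (CPM) scaled by TMM, a normalization that equalizes the bulk of genes between libraries. At this depth, 3 counts corresponded to between 0.251 and 0.362 CPM, and these figures cover counting error only. A QuantSeq read marks one transcript end, so CPM does not scale with transcript length. Day 8 replicate 1 carries Day 8 in its label and Day 3 in the name of its table. It was placed by its label. Members' results that change without it are also given. Counts without it are given for most gene lists against saline, and for fewer lists between Day 8 and Day 3. It correlated across 14203 genes at a Pearson r of 0.965 and 0.966 with the Day 3 libraries and at 0.913 and 0.916 with the other Day 8 libraries. The other 2 Day 8 libraries correlated at 0.957 and the 2 saline-treated libraries at 0.909. Saline replicate 1 stood apart, with correlations between 0.889 and 0.909 to the other 6 libraries, while saline replicate 2 correlated at 0.967 and 0.965 with the Day 3 libraries.

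Resident macrophages of the uterus depend on colony stimulating factor 1, encoded by Csf1, which acts through the receptor tyrosine kinase encoded by Csf1r. Uterine epithelium is a known source of CSF1, and its production there is under the control of ovarian steroids. Once in the tissue, the cells clear dying cells and debris through scavenger receptors and lysosomes, and they secrete the C1q subunits that start the classical complement pathway. All 10 genes were above 0 in all 7 libraries. Uterine identity was also clear from the tissue's own markers, with the homeobox gene Hoxa10 between 82.7 and 286 CPM and the progesterone receptor gene Pgr between 188 and 726 CPM.

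Promoter sequences are shown for the members on which the comparisons turn, the lysosomal and scavenger genes Cd68 and Cd163, and for C1qb, one of the clustered C1q genes. RefSeq entries (GRCm38.p6) were used for 7 of the 10 members, and the 250 bases before each transcript start were searched on both strands for 3 motifs. The receptor gene Csf1r, C1qa and Adgre1 were left out of this search, so their promoters were not tested. The first was the core of the binding site of PU.1, the myeloid transcription factor, with the letters AGGAAG. The second was the AP-1 site, TGAGTCA. The third was the half-site of MAF factors, TGCTGA. Matches are in capitals below, no match overlapped another, and a match on the opposite strand appears as its reverse complement.
Cd68 (chr11:69666171-69666420, minus strand): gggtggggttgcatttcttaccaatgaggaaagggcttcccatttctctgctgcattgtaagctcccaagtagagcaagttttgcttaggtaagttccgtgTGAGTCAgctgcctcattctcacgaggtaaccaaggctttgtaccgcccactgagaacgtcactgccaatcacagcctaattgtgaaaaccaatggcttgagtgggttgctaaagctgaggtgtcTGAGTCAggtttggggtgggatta
Cd163 (chr6:124304401-124304650, plus strand): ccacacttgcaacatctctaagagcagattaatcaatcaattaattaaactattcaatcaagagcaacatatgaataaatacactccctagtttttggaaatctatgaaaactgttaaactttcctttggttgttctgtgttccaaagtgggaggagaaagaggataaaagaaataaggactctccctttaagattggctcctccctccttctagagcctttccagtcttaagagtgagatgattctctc
C1qb (chr4:136886201-136886450, minus strand): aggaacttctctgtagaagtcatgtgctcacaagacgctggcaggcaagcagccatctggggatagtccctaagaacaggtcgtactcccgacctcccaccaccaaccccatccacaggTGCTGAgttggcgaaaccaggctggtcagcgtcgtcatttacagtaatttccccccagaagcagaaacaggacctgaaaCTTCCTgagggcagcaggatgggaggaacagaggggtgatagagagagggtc
The Cd68 promoter held AP-1 matches that began 149 and 24 bases before the transcript start, where 4.46% of 32851 promoters of the same length held at least 1. C1qb held a MAF half-site 131 bases and a PU.1 core 52 bases before its start. The PU.1 core was present in 4 of the 7 members and in 29.5% of all promoters, and the MAF half-site in 2 of the 7 and in 16.1% of all promoters. None of these letters occurred in the Cd163 window.

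The whole set did not follow the treatment groups closely. Summed over the 10 members, the level was 790 and 681 CPM in the saline-treated libraries and 462 and 351 CPM at Day 3. At Day 8 it was 309 CPM in replicate 1 and 725 and 754 CPM in replicates 2 and 3. The Day 8 libraries thus lay on both sides of the Day 3 libraries, and 2 of the 3 stood within the saline range. Relative to each gene's own mean over the 7 libraries, the median member stood at 0.58 and 0.51 (log2 scale) in saline and at -0.20 and -0.62 at Day 3. The corresponding values at Day 8 were -0.69, 0.35 and 0.43. Day 8 replicate 1 was lowest for 5 of the 10 members and above the own mean of none, whereas Day 8 replicates 2 and 3 were each above it for 8. In whole tissue, fewer macrophages and less RNA per macrophage cannot be told apart.

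**Figure D1:**
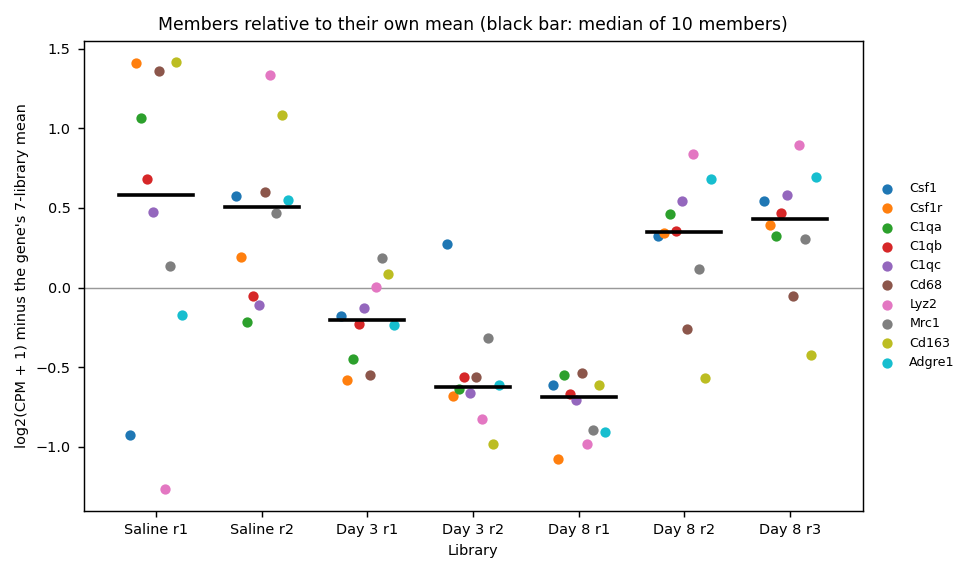
Each point is 1 of the 10 genes in 1 library, as log2(CPM + 1) minus the gene's mean over the 7 libraries, and black bars are the median of the 10 genes. The medians stand at 0.58 and 0.51 in saline, at -0.20 and -0.62 at Day 3, and at -0.69, 0.35 and 0.43 at Day 8, and Csf1 and Lyz2 lie far below the other members in saline replicate 1.

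The comparisons below use a fold change of at least 2 with an unadjusted P under 0.05, and a gene that met both is said to have passed. The study's methods also list a false discovery rate of 0.1, without saying whether it applies to genes or to gene ontology terms. Its results describe the differing genes by fold change and P alone. No gene met a rate of 0.1 in these fits. With this criterion, 2 of 10 members were lower at Day 8 than in saline by edgeR, against 1.42% of 15388 genes. At Day 3, 3 of 10 were lower than in saline by limma, against 2.61% of 14876 genes. The share called lower at Day 3 depended on the scaling. Without quantile normalization, 4 members were lower, against 6.31% of genes lower and 0.713% higher, and the median over all genes moved to -0.26 (log2). By edgeR on 7 libraries with estimated counts, 4 were lower, against 4.05% of genes lower and 1.09% higher. No member passed in the upward direction in either comparison, where 1.53% and 1.9% of genes did. Between Day 8 and Day 3, limma passed 0 members as higher, against 2.25% of genes, and 0 as lower, against 2.41%, and no member had an unadjusted P under 0.05. By edgeR on 7 libraries this comparison passed 3.8% of genes as higher, 1.79% as lower and 0 members. With Benjamini-Hochberg adjustment over all genes tested, 0 genes (0%) had an adjusted p under 0.1 in any of the 3 comparisons by these fits. At an unadjusted P under 0.05 alone, 658 genes (4.28%) passed for Day 8 against saline by edgeR. By limma, 1095 (7.36%) passed for Day 3 against saline and 1070 (7.19%) for Day 8 against Day 3. DESeq2 gave 49 genes (0.26%) with an adjusted p under 0.1 for Day 8 against saline, and none was a member. At Day 3, 1 member passed as lower without saline replicate 1, against 0.792% of genes, and 5 without saline replicate 2, against 8.88%. Both comparisons with saline share the same 2 saline-treated libraries.

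**Figure D2:**
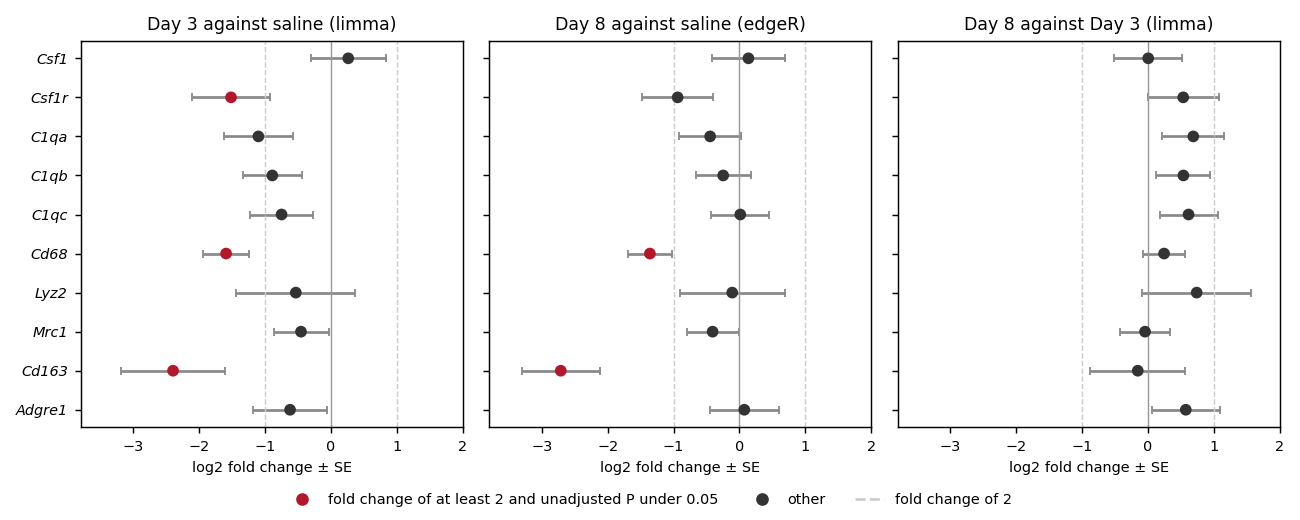
Points are log2 fold changes of the 10 genes with their standard errors in the 3 comparisons, with dashed lines at a fold change of 2 and red for genes that passed. Cd68 and Cd163 are red in both comparisons with saline, Csf1r in Day 3 against saline only, and none in Day 8 against Day 3.

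Csf1, the growth factor itself, was measured at 7.85 and 24.1 CPM in saline and at 13.9 and 19.4 CPM at Day 3. At Day 8 it was measured at 9.998, 20.1 and 23.5 CPM. The 2 saline-treated libraries bracketed all others, and the 3.07-fold gap between them was larger than any difference between group means. Group means were 15.98 ± 11.5 CPM (SD, n = 2) in saline, 16.6 ± 3.87 (n = 2) at Day 3 and 17.9 ± 7.02 (n = 3) at Day 8. Log2 fold changes of Csf1 were 0.26 ± 0.57 (SE) at Day 3 by limma and 0.14 ± 0.56 at Day 8 by edgeR.

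Csf1r, the CSF1 receptor, was measured at 121 and 51.3 CPM in saline and at 29.6 and 27.6 CPM at Day 3. The Day 8 libraries had 20.7, 56.9 and 59.0 CPM. Both Day 3 libraries were below both saline-treated libraries, while Day 8 overlapped with saline because replicates 2 and 3 lay above saline replicate 2. By limma, Csf1r fell by 1.52 ± 0.59 (log2, SE) at Day 3, with an unadjusted P of 0.033 and an adjusted p of 0.624. The value was -0.94 ± 0.53 at Day 8 by edgeR, with an unadjusted P of 0.122. The Day 3 call rested on saline replicate 1, without which the limma log2 fold change was -0.83 (unadjusted P = 0.229). It was also lost by limma without Day 3 replicate 1 (-1.55, unadjusted P = 0.087) and without Day 3 replicate 2 (-1.46, unadjusted P = 0.104). A blocked limma fit on replicate number lost the call too (unadjusted P = 0.054, adjusted p = 0.796). That fit left the fold change of Csf1r as in the main fit, since both groups hold replicates 1 and 2. Without a filter on low values, the call was lost by limma as well (unadjusted P = 0.077, adjusted p = 0.639). Csf1r lies on chromosome 18, where exons of Hmgxb3 on the opposite strand overlap the last 500 bases of its transcript. Hmgxb3 itself had between 6.32 and 16.3 CPM, highest in saline replicate 1.

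**Figure D3:**
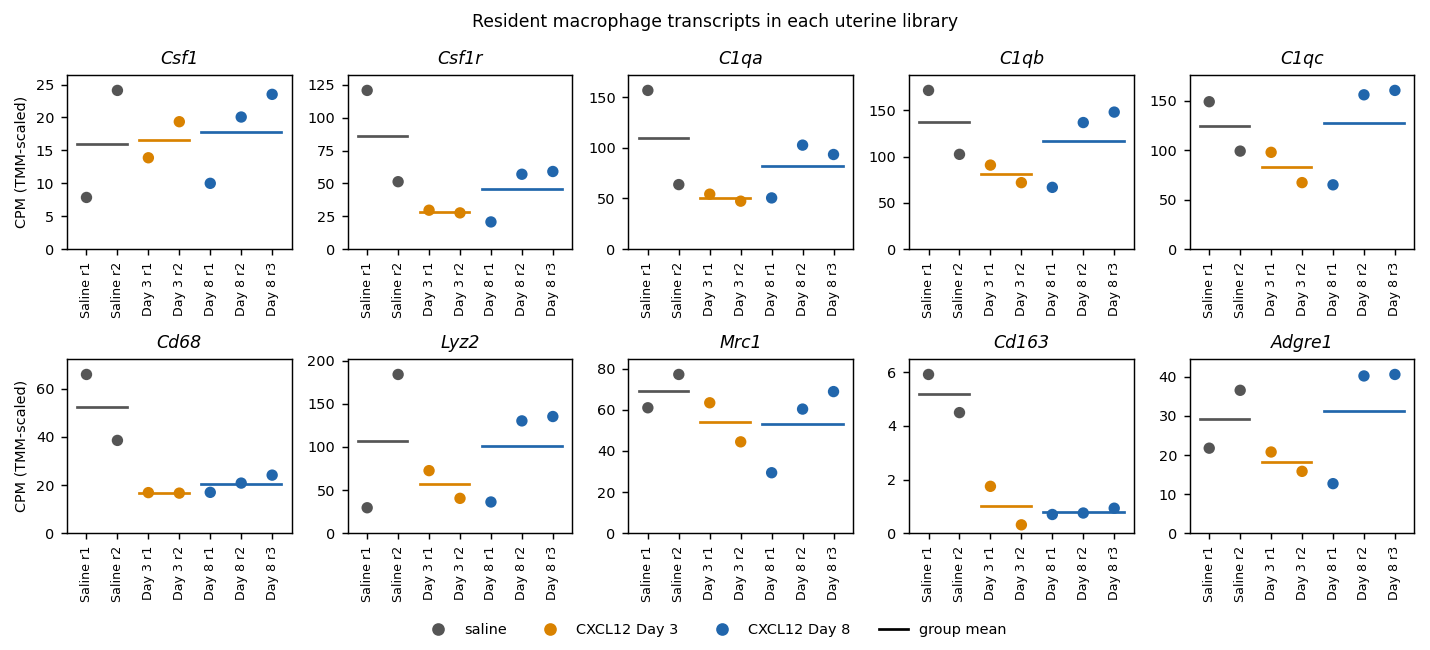
TMM-scaled CPM of each gene in each of the 7 libraries, with each panel's vertical axis from 0 and horizontal lines at the group means. Cd68 and Cd163 are the 2 members with all CXCL12 libraries below both saline-treated libraries, as for 5.18% of all genes, and each of the other 8 has at least 1 CXCL12 library within or above the saline range.

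Cd68, a heavily glycosylated protein of macrophage lysosomes, was measured at 66.0 and 38.6 CPM in saline. It was 16.9 and 16.7 CPM at Day 3 and 17.0, 20.8 and 24.1 CPM at Day 8. All 5 CXCL12 libraries lay below both saline-treated libraries, as for 2 of the 10 members and 5.18% of 14876 genes. Cd68 fell by 1.59 ± 0.34 (log2, SE) at Day 3 by limma (unadjusted P = 0.0017, adjusted p = 0.624). It fell by 1.36 ± 0.33 at Day 8 by edgeR (unadjusted P = 0.0045, adjusted p = 0.956). Without saline replicate 1 the log2 fold change was -1.16 at Day 3 and -0.92 at Day 8, and the latter is under a fold of 2 (edgeR unadjusted P = 0.032). Without Day 8 replicate 1 it was -1.24 at Day 8. Between Day 8 and Day 3, the log2 difference in Cd68 was 0.24 ± 0.31 by limma (unadjusted P = 0.461), although the 3 Day 8 libraries all lay above the 2 Day 3 libraries, as 16.2% of genes did.

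Cd163, the scavenger receptor for haptoglobin-bound hemoglobin, was the least abundant member, with 49 and 47 counts in saline (5.92 and 4.497 CPM). Day 3 had 17 (estimated) and 3 counts, or 1.75 and 0.312 CPM. Day 8 had 6, 9 and 9 counts, or 0.698, 0.753 and 0.932 CPM. Every CXCL12 library lay below both saline-treated libraries, and 1 of them stood at the floor of 3 counts. Cd163 fell by 2.71 ± 0.59 (log2, SE) at Day 8 by edgeR (unadjusted P = 0.0024, adjusted p = 0.956). It fell by 2.40 ± 0.79 at Day 3 by limma (unadjusted P = 0.016, adjusted p = 0.624). The Day 8 call was kept whichever library was left out, with log2 fold changes between -2.90 and -2.50. The Day 3 call was lost without saline replicate 1 (-2.17, unadjusted P = 0.088 by limma) and without Day 3 replicate 2 (-1.38, unadjusted P = 0.127), and the value was -3.39 without Day 3 replicate 1. No difference between Day 3 and Day 8 was detected with these libraries (-0.16 ± 0.72 by limma).

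Mrc1, the mannose receptor CD206 of tissue macrophages, was measured at 61.0 and 77.2 CPM in saline, 63.4 and 44.4 CPM at Day 3, and 29.4, 60.4 and 68.9 CPM at Day 8. The 3 groups overlapped, with Day 8 replicate 1 lowest. Its log2 fold change was -0.45 ± 0.42 (SE) at Day 3 by limma and -0.41 ± 0.39 at Day 8 by edgeR, and neither passed. Cd163 as a percentage of Mrc1 was 9.70% and 5.82% in saline, 2.76% and 0.703% at Day 3, and 2.37%, 1.25% and 1.35% at Day 8. The saline-treated libraries were thus the highest pair in this ratio between 2 scavenger receptors as well as in Cd163 alone. How many genes separate in this way relative to Mrc1 was not computed.

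The 3 C1q genes, which encode the A, B and C chains of the recognition molecule of the classical pathway, lie side by side on chromosome 4 on the minus strand (GENCODE M21, mm10). C1qb spans chr4:136880129-136886187, C1qc chr4:136889804-136893065 and C1qa chr4:136895917-136898803. They were the most abundant members beside Lyz2, with C1qc at a mean of 114 CPM over the 7 libraries and C1qb at 113. C1qa was measured at 157 and 63.7 CPM in saline, 54.3 and 47.4 CPM at Day 3, and 50.6, 103 and 93.4 CPM at Day 8. C1qb was measured at 171 and 102 CPM in saline, 90.8 and 71.8 CPM at Day 3, and 66.7, 137 and 148 CPM at Day 8. C1qc was measured at 149 and 99.2 CPM in saline, 98.0 and 67.3 CPM at Day 3, and 65.1, 156 and 161 CPM at Day 8. In each gene both Day 3 libraries lay below both saline-treated libraries, by a margin for C1qc of little more than 1 CPM, and Day 8 replicates 2 and 3 lay within or above the saline range.

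The summed C1q level was 477 and 265 CPM in saline, 243 and 186 CPM at Day 3, and 182, 396 and 402 CPM at Day 8. The proportions of the chains moved less than the sum, since C1qb made up between 34.6% and 38.6% of it in the 7 libraries. C1qa ranged from 22.3% in Day 3 replicate 1 to 32.8% in saline replicate 1. By limma, the log2 fold change at Day 3 was -1.10 ± 0.52 (SE) for C1qa (unadjusted P = 0.067), -0.89 ± 0.45 for C1qb (unadjusted P = 0.083) and -0.75 ± 0.48 for C1qc (unadjusted P = 0.159). None of the 3 passed. Without saline replicate 2, C1qa (-1.86, unadjusted P = 0.0047) and C1qb (-1.34, unadjusted P = 0.031) passed by limma. C1qa also passed without quantile normalization, by edgeR on 7 libraries, without Day 8 replicate 1 and with that library counted as Day 3 (-1.26 to -1.09), and stood at -0.35 without saline replicate 1. Day 8 values by edgeR were -0.44 ± 0.47 for C1qa, -0.25 ± 0.42 for C1qb and 0.01 ± 0.44 for C1qc.

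Lyz2, the macrophage-type lysozyme, is also expressed by neutrophils and monocytes. It was measured at 29.5 and 184 CPM in saline, 72.5 and 40.4 CPM at Day 3, and 36.2, 130.1 and 135 CPM at Day 8. The saline pair held both the lowest and the highest library, and the 6.24-fold gap between them was the widest within-group gap of a member in saline. Its log2 fold change was -0.53 ± 0.90 (SE) at Day 3 by limma and -0.11 ± 0.80 at Day 8 by edgeR. It turned positive without saline replicate 2, to 0.79 and 1.75. Its neighbor Lyz1 followed it, with 7.61 and 23.7 CPM in saline and a Lyz2 to Lyz1 ratio between 3.87 and 7.75. Of the 50-base words in the last 500 bases of Lyz2, 16.9% also occur in Lyz1, and because the authors counted multiple alignments, reads of the pair may be shared.

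Adgre1, which encodes the mouse macrophage antigen F4/80, was measured at 21.7 and 36.6 CPM in saline, 20.8 and 15.8 CPM at Day 3, and 12.7, 40.2 and 40.6 CPM at Day 8. Day 8 replicates 2 and 3 were the highest of the 7 libraries and replicate 1 the lowest. The log2 fold change was -0.62 ± 0.57 (SE) at Day 3 by limma and 0.07 ± 0.53 at Day 8 by edgeR, the latter -0.046 under quantile normalization with limma.

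Over the 10 members, log2 fold changes had a median of -0.82 at Day 3 and -0.33 at Day 8, the latter -0.045 without Day 8 replicate 1. Medians over all genes were 0.0089 and -0.0078. At Day 3, 9 of 10 members were below 0, as were 49.4% of all genes, and 7 of 10 had both Day 3 libraries below both saline-treated libraries, as did 23.3% of all genes. At Day 8, 7 of 10 were below 0, as were 50.7% of all genes, and for 2 of 10 all Day 8 libraries lay below saline, as for 9.42% of all genes. From Day 3 to Day 8 the median was 0.54 (all genes 0.00054), and 2 of 10 members were below 0, as were 49.9% of all genes. The largest differences were 0.74 ± 0.82 (SE) for Lyz2, 0.69 ± 0.47 for C1qa and 0.62 ± 0.44 for C1qc, and none passed by limma.

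This last comparison depended on where Day 8 replicate 1 was placed. Without that library, 3 members passed as higher at Day 8 by limma, which were Csf1r (1.02), C1qc (1.05) and Adgre1 (adjusted p = 0.142, log2 fold change 1.12), against 5.69% of genes. With the library counted as Day 3, 5 members passed as higher, against 6.01% of genes. These were Lyz2 (1.54), Adgre1 (1.29), Csf1r (1.17), C1qc (1.14) and C1qa (1.00). The adjusted p of limma was under 0.1 for Adgre1 (0.057), C1qc (0.056) and C1qb (0.085), and for 9.36% of all genes. Cd68 (0.36) and Cd163 (-0.06) did not pass in that arrangement.

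Members were also set against the summed C1q level of the same library, which gives each gene relative to another family of macrophage genes in the same RNA. Cd68 per C1q was 0.138 and 0.145 in saline, 0.0694 and 0.0893 at Day 3, and 0.0931, 0.0526 and 0.0600 at Day 8. Csf1r per C1q was 0.253 and 0.193 in saline, 0.122 and 0.148 at Day 3, and 0.113, 0.144 and 0.147 at Day 8. For both genes the 2 saline-treated libraries were above all 5 CXCL12 libraries, although the saline libraries differed 2.35-fold in Csf1r itself. The level of Csf1r did not separate in this way, since Day 8 replicates 2 and 3 (56.9 and 59.0 CPM) were above saline replicate 2 (51.3 CPM). The share of all genes whose ratio to C1q separates in this way was not computed. Lyz2 per C1q gave 0.0618 and 0.693 in saline, with all 5 CXCL12 libraries between these values. Mrc1 and Adgre1 per C1q were also lowest in saline replicate 1 and highest in saline replicate 2, so these ratios did not separate the groups.

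**Figure D4:**
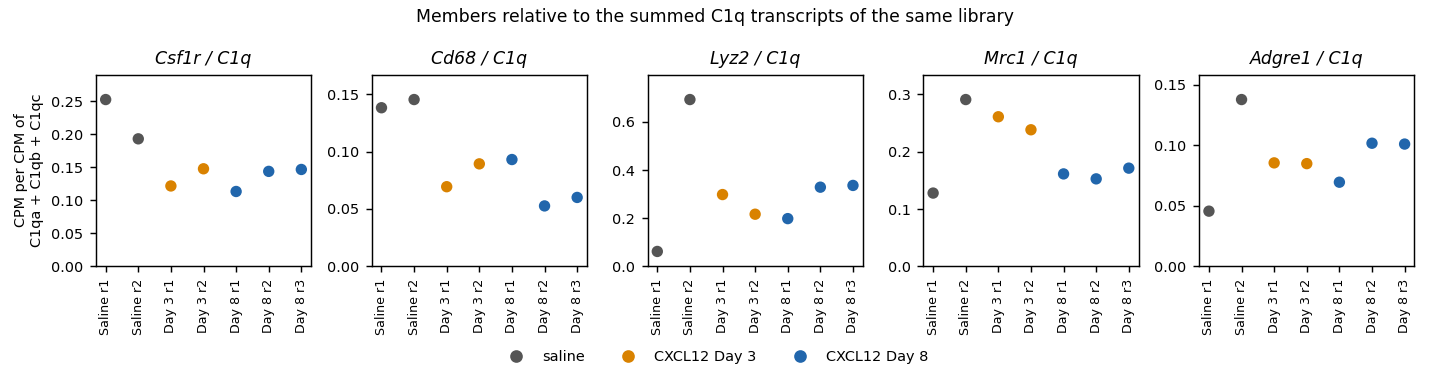
Each point is the CPM of a gene divided by the summed CPM of C1qa, C1qb and C1qc in the same library, with each vertical axis from 0. Both saline-treated libraries lie above all 5 CXCL12 libraries for Csf1r (0.253 and 0.193) and Cd68 (0.138 and 0.145), and on both sides of them for Lyz2, Mrc1 and Adgre1. The share of all genes with such a separation of the ratio was not computed.

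Across the 7 libraries, members fell into overlapping patterns rather than one. On the log2 scale, C1qb and C1qc correlated at a Pearson r of 0.969, C1qa and C1qb at 0.950, and Csf1r with C1qa and with C1qb at 0.946 and 0.945. Cd68 and Cd163 correlated at 0.895, Lyz2 with Adgre1 at 0.870 and Csf1 with Lyz2 at 0.835, whereas Lyz2 and C1qa correlated at 0.02. These coefficients describe 7 points that share library, depth and treatment. Among 9326 other genes with a mean of at least 10 CPM, those closest to the mean of the members were Hsph1 (r = 0.974), B3glct (0.971), C3ar1 (0.970), Scn7a (0.964), Foxo1, Ptpre, Arhgap31 and Ppp1r21. C3ar1, the receptor for complement fragment C3a, had 52.7 and 40.2 CPM in saline, 22.8 and 19.1 at Day 3, and 11.6, 37.5 and 38.2 at Day 8. Closest to C1qa alone were Satb1 (0.994), Nrp2 (0.994) and Dennd5a (0.993).

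Other genes of the CSF1 and myeloid growth factor pathway showed few passing differences. Of 13 tested, 1 was lower at Day 8 by edgeR and 2 at Day 3 by limma, and none was higher. For this list and those that follow, the shares over all genes were 1.42% lower and 1.53% higher at Day 8, 2.61% lower and 1.9% higher at Day 3, and 2.41% lower and 2.25% higher between Day 8 and Day 3. Maf, a transcription factor of macrophages and lymphocytes and the most abundant gene of the list, had 285 and 142 CPM in saline and between 117 and 160 CPM in the other libraries, and it did not pass. Il34, the second ligand of the CSF1 receptor, was between 1.25 and 4.95 CPM, and Csf2 had 0 counts in the 6 count libraries and is listed at 0 in the log2 table.

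Of 20 other genes expressed by most tissue macrophages, 3 were lower and 1 higher at Day 8 than in saline by edgeR, and the median over the 20 was -0.32 on the log2 scale. At Day 3, 6 were lower by limma, and the median was -0.64. Ctss, the lysosomal protease cathepsin S, had 345 and 222 CPM in saline, 113 and 77.1 CPM at Day 3, and 64.6, 160.0 and 154 CPM at Day 8. Clec7a, the beta-glucan receptor dectin-1, had 60.3 and 27.6 CPM in saline, 7.30 and 7.39 CPM at Day 3, and 11.6, 20.5 and 16.7 CPM at Day 8. In both genes all 5 CXCL12 libraries lay below both saline-treated libraries. Clec7a fell by 2.43 ± 0.45 (log2, SE) at Day 3 by limma and by 1.45 ± 0.42 at Day 8 by edgeR. The NADPH oxidase subunit gene Cybb also fell in both comparisons, by 1.52 and 1.21. Mpeg1, Laptm5 and Cd300a completed the 6 genes at Day 3, and Cd14, the lipopolysaccharide co-receptor, was higher at Day 8 (1.12 ± 0.44, adjusted p = 0.956 by edgeR). Cd14 and Clec7a were also the 2 genes of this list that were higher at Day 8 than at Day 3 by limma.

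Of 19 genes of long-lived perivascular and interstitial macrophages tested, 15 were below 0 at Day 8, with a median of -0.67 on the log2 scale. Of the 19, 2 passed as lower at Day 8 than in saline, 0 passed at Day 3, and 3 (Slc40a1, Cd209d and Cd209f) were lower at Day 8 than at Day 3. Vsig4, a complement receptor of resident macrophages, had 13 and 15 counts in saline, 1 (estimated) and 1 at Day 3, and 0 in all 3 Day 8 libraries. Hmox1, which degrades heme, had 4.47 and 5.55 CPM in saline, 2.26 and 1.56 CPM at Day 3, and 0.581, 2.17 and 1.24 CPM at Day 8. It fell by 1.91 ± 0.66 (log2, SE) at Day 8 by edgeR. Sepp1, the selenium carrier that is also made by other cells, was the most abundant gene of the list, between 228 and 669 CPM. It did not pass with all libraries.

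Among 14 other complement genes tested, 2 were lower at Day 8 than in saline, 1 (C4b) was lower at Day 3, and C4b was the 1 gene higher at Day 8 than at Day 3. Cfb, complement factor B, had 271 and 49.7 CPM in saline and between 25.8 and 81.6 CPM elsewhere, so the groups overlapped. It fell by 1.90 ± 0.68 (log2, SE) at Day 8 by edgeR. C5ar1, the C5a receptor, had 15.7 and 8.61 CPM in saline and between 3.02 and 6.63 CPM in the CXCL12 libraries, and fell by 1.26 ± 0.48. Of 16 lysosomal and scavenging genes, 2 were lower at Day 8 and 4 at Day 3 than in saline. Gpnmb, a glycoprotein of lipid-laden macrophages, had 66.0 and 23.8 CPM in saline, 1.23 and 2.71 CPM at Day 3, and 2.91, 14.1 and 5.70 CPM at Day 8. It fell by 4.26 ± 0.77 (log2, SE) at Day 3 by limma and by 2.59 ± 0.69 at Day 8 by edgeR. Apoe, Psap and Grn were the other 3 at Day 3. Cd36, a fatty acid transporter shared with adipocytes, fell by 1.78 ± 0.49 at Day 8.

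Counts in these lists changed when Day 8 replicate 1 was left out, where 3.25% of genes were lower and 3.44% higher at Day 8 than in saline by edgeR. The 20 macrophage genes then had 1 lower and 1 higher. Cybb (-0.91) no longer passed and Ctss (-0.88) did not pass, while Clec7a (-1.26) and Cd14 (1.33) did. The 19 perivascular and interstitial genes had 5 lower and 1 higher, with Hmox1 at -1.57. The 14 complement genes had 1 lower and 3 higher, with Cfb at -2.24 and C5ar1 (-1.003) no longer passing. The 16 lysosomal genes had 2 lower and 1 higher, with Gpnmb at -2.21, and the 13 pathway genes had 1 lower. Between Day 8 and Day 3 without that library, limma passed 5.69% of all genes as higher and 5.63% as lower. In that comparison 7 of 20 macrophage genes, 7 of 16 lysosomal genes and 4 of 14 complement genes were higher, and none of them was lower. Of the 19 perivascular and interstitial genes, 3 were higher and 3 lower, and of the 13 pathway genes 1 was higher. The 3 higher were Sepp1 (1.41), Lyve1 (1.54) and Cd5l (1.69), and the 3 lower were Cbr2 (-2.93), Slc40a1 (-2.75) and Cd209d (-3.53). Cd14, Clec7a, C4b, Slc40a1 and Cd209d passed in the same direction as with all libraries, and Cd209f did not (-1.66, unadjusted P = 0.079).

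Markers of other cell types also differed between libraries, and their part in the results above was not tested. Adipocyte genes, of which Fabp4 was the most abundant on average and Cfd in saline replicate 1, summed to 977 and 3012 CPM in saline, 3487 and 391 CPM at Day 3, and 293, 484 and 329 CPM at Day 8. Of 10 tested, 9 were lower at Day 8 than in saline by edgeR and 0 at Day 3 by limma, and none was at 0 in any library. Without Day 8 replicate 1, 8 were lower at Day 8. Day 3 replicate 1, with the highest adipocyte sum, had 16.9 CPM of Cd68 and 1.75 CPM of Cd163, the latter the highest of the CXCL12 libraries. Of 7 neutrophil genes tested, S100a8, S100a9 and Cxcr2 were lower at Day 8, and S100a9 fell by 2.79 ± 0.41 (log2, SE). At Day 3, S100a8, S100a9 and Mmp9 were lower and Mpo was higher by limma, and the median was -1.12. S100a9 had 28.8 and 64.0 CPM in saline, 8.53 and 4.37 CPM at Day 3, and 8.25, 6.19 and 6.01 CPM at Day 8, so all 5 CXCL12 libraries were below saline. Retnlg went the other way, with 75.6 and 60.0 CPM in saline, 134 and 128 CPM at Day 3, and 85.1, 135 and 163 CPM at Day 8, all 5 above saline, at a Day 8 log2 fold change of 0.89 ± 0.35 that is under a fold of 2. Mpo was also above saline in all 5, with 0 and 4 counts in saline and 5 to 28 counts elsewhere, and did not pass at Day 8. The summed level of the 11 neutrophil genes in the tables, of which Retnlg was the most abundant on average, was 166 and 222 CPM in saline, 168 and 156 CPM at Day 3, and 123, 167 and 192 CPM at Day 8. Of 8 monocyte genes, Plac8 was higher at Day 8 (1.68 ± 0.44), and the summed level was 438 and 527 CPM in saline, 695 and 714 CPM at Day 3, and 684, 1234 and 1614 CPM at Day 8. Plac8 is also expressed outside the monocyte lineage and supplied most of these sums. Over the 8 monocyte genes the median log2 fold change at Day 8 was -0.38, with 4 below 0 and 4 above. Vcan, which did not pass, had 113 and 54.3 CPM in saline and 41.2, 51.8 and 40.8 CPM at Day 8. Of 10 dendritic cell genes tested, 0 passed at Day 8 by edgeR. By limma, Cd209a was higher at Day 3 than in saline, and Flt3 was higher and Cd24a lower at Day 8 than at Day 3. Their sum was dominated by Cd24a, a gene that epithelium also expresses, which had 484 and 1455 CPM in saline.

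Of 6 genes of alternatively activated macrophages tested, 1 was higher and 1 lower at Day 8 than in saline by edgeR. Ccl8, a monocyte-attracting chemokine, was higher at Day 8 (1.61 ± 0.67) with 41.0 CPM in replicate 1 and 182 and 233 CPM in replicates 2 and 3, against 48.8 and 48.9 CPM in saline. Il4ra, the most abundant of the 6, did not pass. Without Day 8 replicate 1, the counts at Day 8 were also 1 higher and 1 lower, with Ccl8 at 2.06. The same setting gave 3 monocyte genes higher, 3 neutrophil genes lower and 1 higher, and 1 dendritic cell gene lower.

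Steroid-responsive uterine genes separated Day 8 replicates 2 and 3 from the other 5 libraries. Progesterone-induced genes stood at a median of -0.95 and -0.02 (log2, relative to each gene's mean) in saline, -1.14 and -0.70 at Day 3, and -0.21, 1.65 and 1.97 at Day 8. Estrogen-induced genes stood at 0.03 and 0.25 in saline, 1.01 and 0.93 at Day 3, and 0.42, -1.71 and -1.08 at Day 8. Those 2 Day 8 libraries were also the CXCL12 libraries with the highest members' level. Ovary and oviduct genes summed to 4343 CPM in Day 8 replicate 2 and to 253 CPM in replicate 3, and to between 432 and 1551 CPM in the other libraries. The oviduct gene Ovgp1 was between 242 and 757 CPM, and the steroidogenic gene Hsd3b1 was the larger part in Day 8 replicate 2 (2410 CPM) and above Ovgp1 in saline replicate 2 (703 and 565 CPM). The part of cycle stage or adjacent tissue in the members' levels was not tested.

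**Figure D5:**
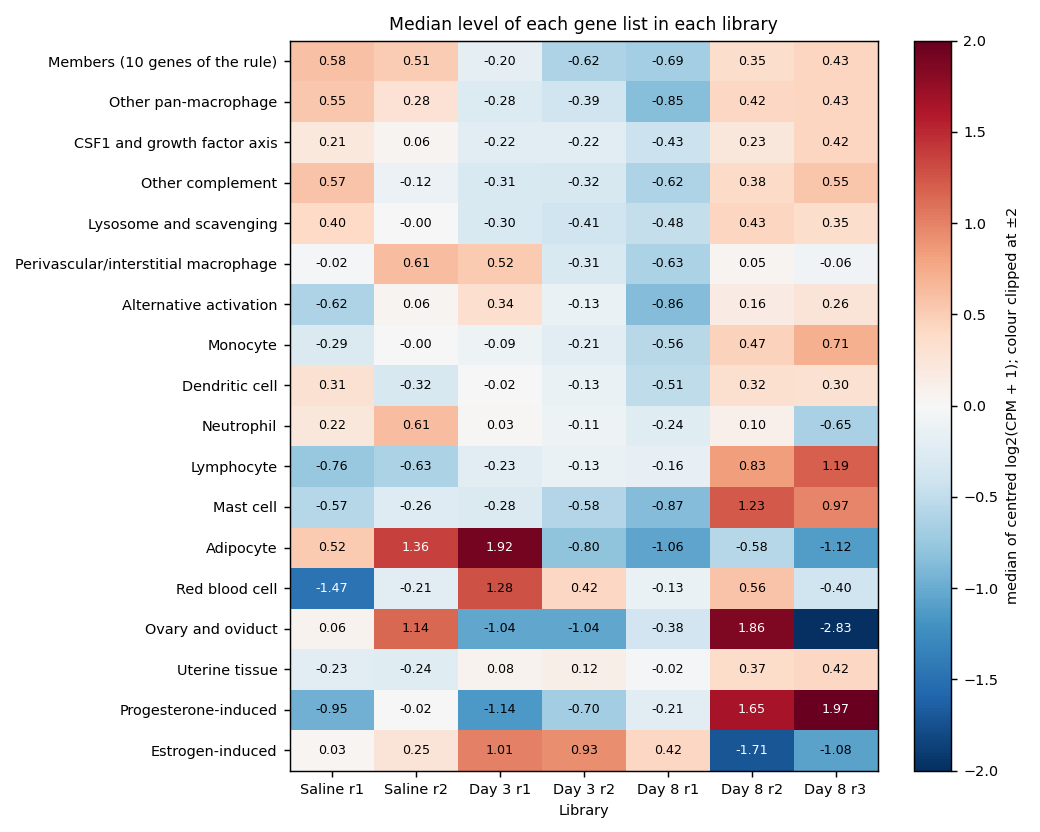
Each cell is the median of log2(CPM + 1) minus the gene's own mean over 7 libraries, for the genes of a list in 1 library, and colors are clipped at ±2. The members' row runs from 0.58 in saline replicate 1 to -0.69 in Day 8 replicate 1, next to an adipocyte row that is highest in Day 3 replicate 1 (1.92) and a progesterone row that is highest in Day 8 replicates 2 and 3.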

How the data were processed

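Total RNA of whole uterus was made into QuantSeq 3′ libraries, and the authors aligned reads with Bowtie2 and used Bedtools to count both unique and multiple alignments. The submitters' processing notes name the builds mm10 and hg19 without a role. Tables deposited by the authors hold raw counts for 6 libraries. The remaining table, Day 3 replicate 1, was deposited as log2(normalized count + 1). The log2 transformation was undone, and dividing by a factor of 1.0525 gave estimated counts, since 96.8% of 4424 low values then lay within 0.1 of a whole number. Blank rows, 2028 in each of 6 tables, hold no gene and no value and were left out.

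Groups were taken from the labels. For Day 8 against saline, edgeR 4.0.16 (filterByExpr, TMM, glmQLFit and glmQLFTest) was fitted to 3 groups over the count libraries. Comparisons with Day 3 were made by limma 3.58.1 (lmFit, eBayes with a trend) on log2(value + 1) with a pseudocount of 1, after scaling to 10000000, quantile normalization over 7 libraries and a filter of at least 10 in at least 2 libraries. Residual degrees of freedom were 3 and 4. A fold change on that scale understates low genes. P-values were adjusted by the Benjamini-Hochberg method over all genes tested and are two-sided. They measure the spread between these libraries, which may be partly technical, as the labels do not tie libraries to animals. Tests were checked on simulated data. Alternatives were run in R 4.3.3 and included DESeq2 1.42.0, other normalizations, filters, a replicate block, the placement of Day 8 replicate 1 and each library left out.

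The members and the 17 other gene lists were chosen with earlier results of these data known. In each list the 2 genes with the smallest P at Day 8 and the most abundant gene could be named, along with the 8 genes most like the members and the 3 most like C1qa. Other genes were named to complete a count or for background and were chosen after their values were seen. Positions came from GENCODE M21. Some genes of the lists are counted but not reported here by name.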

Additional observations from a re-analysis of the deposited data

Results flagged for a closer look

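Progesterone-induced genes were noted because the list median lay below the mean of the 2 saline-treated libraries in both Day 3 libraries and above it in all 3 Day 8 libraries. The mean of the libraries' list medians, relative to saline, was -0.44 at Day 3 and 1.62 at Day 8 (log2), a difference of 2.06, and this difference between medians was given no test of its own. Gene by gene, in the comparison of Day 8 with Day 3 by limma, 7 of 7 genes tested were above 0 and 3 passed as higher, with a median of 2.87. Day 3 replicate 2 (-0.70) and Day 8 replicate 1 (-0.21) lay within the range of the saline-treated libraries (-0.95 and -0.02). Over the genes tested, the median log2 fold change was positive in both comparisons with saline, 0.30 at Day 3 and 2.96 at Day 8, so the opposite directions were not seen in the fits.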

How the results depend on the processing

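The members' median log2 fold change kept its sign under every alternative run: -0.50 to -0.05 for Day 8 against saline (main value -0.33), -1.23 to -0.62 for Day 3 against saline and 0.29 to 0.99 for Day 8 against Day 3. Counts of all genes that passed were less stable, and the causes were not tested. For Day 8 against saline, 453 genes became 157 with a replicate block, 1094 with Day 8 replicate 1 counted as Day 3, and 229 to 1527 with single libraries left out (1527 without saline replicate 2, 229 without Day 8 replicate 3). For Day 3 against saline, 671 became 1044 without quantile normalization and 225 to 2828 with single libraries left out. For Day 8 against Day 3, 693 became 426 with the block, 1801 with Day 8 replicate 1 counted as Day 3 and 280 to 1673 with single libraries left out. Members that passed at Day 3 numbered 1 to 5, with 1 without saline replicate 1 and 5 without saline replicate 2, where 8.88% of genes were lower and 2347 genes, 3 members among them (Cd68, C1qa and Csf1r), had an adjusted p under 0.1 by limma.

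Replicate numbers are shared between groups, but same-numbered libraries did not deviate together (correlations of deviations between -0.18 and 0.02), so the numbers were not taken as a pairing. With the block, Cd68 and Cd163 still passed at Day 8 (-1.44 and -2.83). Csf1r at Day 3 did not, although its fold change was that of the main fit. The block also turned 3 small differences, to -0.29 for C1qc and -0.34 for Adgre1 at Day 8 and to -0.24 for Csf1 between Day 8 and Day 3.

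Other sign changes were all in members that did not pass. For Day 8 against saline, C1qc was -0.00042 with upper-quartile normalization, and limma gave -0.13 for C1qc, 0.21 for Lyz2 and -0.046 for Adgre1. With Day 8 replicate 1 counted as Day 3, Lyz2 was 0.29 and C1qb 0.028, and Mrc1 was 0.60 between Day 8 and Day 3. Without quantile normalization, Csf1 was -0.026 at Day 3 and Cd163 was 0.022 between Day 8 and Day 3. With single libraries left out, the ranges at Day 8 were -0.45 to 1.17 for Csf1, -0.95 to 0.35 for C1qa, -0.57 to 0.17 for C1qb, -0.25 to 0.34 for C1qc, -0.25 to 0.50 for Adgre1 and -0.89 to 1.75 for Lyz2. At Day 3 they were -0.49 to 1.03 for Csf1 and -1.87 to 0.79 for Lyz2. Between Day 8 and Day 3 they were -0.23 to 0.35 for Csf1, -0.29 to 0.33 for Mrc1 and -1.15 to 0.84 for Cd163. Groups of 2 and 3 libraries and the low counts of Cd163 limit the precision.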

Other observations

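Lymphocyte and mast cell genes, which are not part of the comparisons above, had their highest sums in Day 8 replicates 2 and 3. The 12 lymphocyte genes summed to 50.1 and 61.5 CPM there and to between 17.2 and 25.7 CPM in the other 5 libraries. Not all shared this, since Ms4a1, a B cell gene, had 9 and 12 counts in saline and 7 and 0 counts in those 2 libraries, and Prf1 had 3 and 4 counts in saline and 1 and 2 counts there. Of 7 lymphocyte genes tested, 3 were higher at Day 8 than in saline by edgeR, and all 3 are genes of natural killer cells (Ncr1, Klrb1c and Gzma). Ncr1 had 1.33 and 2.01 CPM in saline, 3.50 and 2.60 CPM at Day 3, and 4.07, 11.2 and 14.7 CPM at Day 8. It rose by 2.55 ± 0.67 (log2, SE; unadjusted P = 0.0066, adjusted p = 0.956), and by 2.91 without Day 8 replicate 1. Without that library, 4 lymphocyte and 4 mast cell genes passed as higher. Of 5 mast cell genes tested, 0 passed at Day 8 by edgeR with all libraries, although all 5 were above 0, and the mast cell protease gene Cma1 had 3.50 and 4.21 CPM in saline and 2.21, 17.6 and 12.02 CPM at Day 8. The 6 mast cell genes in the tables, including 1 not tested, summed to 13.4 and 21.4 CPM in saline, 20.97 and 13.9 CPM at Day 3, and 9.998, 62.0 and 52.2 CPM at Day 8.

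Red blood cell genes summed to 6989 CPM in saline replicate 1, 12740 in saline replicate 2, 35298 in Day 3 replicate 1 and between 12051 and 22770 CPM in the other libraries.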
